A study of Sus scrofa with 4 samples.

Results

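Secreted modulators of WNT signalling were followed by single-cell RNA sequencing in the meniscus of the pig (Sus scrofa), a crescent of fibrocartilage in the knee. The 9 genes SFRP1, SFRP2, SFRP4, FRZB, WIF1, DKK2, DKK3, RSPO2 and RSPO3 were chosen by symbol, out of 21280 genes in the deposited tables, and all 9 were found and measured. There were 4 libraries, made from the red zone and the white zone of the lateral and of the medial meniscus. By general knowledge of the tissue, blood vessels supply the outer red zone and are lacking from the inner white zone. All 4 came from tissue freed of synovium and digested with pronase and then collagenase, and no treatment or genotype is given. The labels name no animals, so n = 2 libraries per zone. The p-values measure only the spread between these libraries, or between sums of cells from the same libraries, and not between animals. Where 2 values are given for a zone, the lateral library comes first.

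WNT ligands act on cells through frizzled receptors together with LRP5 or LRP6, and several families of secreted proteins tune them before they reach the cell. The secreted frizzled-related proteins (SFRP1, SFRP2, SFRP4 and FRZB, also called SFRP3) and WIF1 bind WNT ligands themselves, DKK2 is a dickkopf protein that acts on LRP5 and LRP6, and DKK3 is a divergent dickkopf relative whose role in WNT signalling is less clear. R-spondins such as RSPO2 and RSPO3 strengthen WNT signals by binding LGR4, LGR5 or LGR6 and removing the ligases RNF43 and ZNRF3 from the cell surface. FRZB and WIF1 are known from articular cartilage, and SFRP2 and SFRP4 from fibroblasts of many connective tissues.

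The libraries held 5753 barcodes (lateral red), 6840 (medial red), 7382 (lateral white) and 7807 (medial white), of which 5701, 6803, 7382 and 7807 were kept, with a median of 1473 to 1617 unique molecular identifiers (UMIs, single captured RNA molecules) per cell. Library pairs shared 10 to 20 barcodes. Kept cells were placed in marker groups by the list with the most distinct detected markers, at least 3. None of the 9 genes is a marker, so their own counts placed no cell. Genes that vary together with markers can still follow the groups. Between 77.2% and 88.3% of kept cells found a group. Of fibroblast-like cells there were 1200 and 2294 in the red libraries against 37 and 19 in the white ones, and chondrocyte-like cells 101 and 55 against 2917 and 1699. Fibrochondrocyte-like cells numbered 1017 and 859 in the red and 2750 and 4808 in the white libraries. Mural-like (vessel wall), endothelial-like and myeloid-like cells were 51 to 204 per white library and 587 to 785 per red library. Of each group's 8 to 12 markers in the files, those at 0 UMIs in their own group were PI16 in the fibroblast-like cells of both white libraries, MFAP5 and C7 in those of the medial white library, MATN3 in the chondrocyte-like cells of 3 libraries (all but lateral white) and DES in the mural-like cells of both white libraries. COL2A1 reached 4576 to 22301 CPM (counts per 1000000 UMIs) in chondrocyte-like cells and PECAM1 2193 to 3878 CPM in endothelial-like cells. Mural-like cells differed in make-up between the zones. ACTA2 stood at 3709 and 3460 CPM in the red and 1865 and 906 CPM in the white libraries, with MYH11, TAGLN and CNN1 also lower in white. RGS5 went from 2517 and 2329 to 8338 and 6927 CPM, with NOTCH3, KCNJ8 and ABCC9 also higher in white. Chondrocyte-like cells carried a median of 6 and 4 distinct chondrocyte markers in the red libraries, against 7 in each white library. Their median of fibroblast markers was 1 and 2 in the red and 1 in each white library. COL2A1 there stood at 13907 and 4576 CPM in the red and 10099 and 22301 CPM in the white libraries. The part of such make-up in zone differences within groups was not tested.

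Over all kept cells, 8 of the 9 genes differed between the zones. SFRP1, FRZB and WIF1 were higher in the white zone, and SFRP2, SFRP4, DKK2, RSPO2 and RSPO3 were higher in the red zone. DKK3 passed the test in neither direction. Of all 12481 genes tested, 39.3% were called in either direction (17.4% higher and 21.8% lower in the white zone, edgeR's quasi-likelihood test, Benjamini-Hochberg adjusted p below 0.05), so differing between the zones was common in these libraries. The median log2 difference, white minus red, was -1.34 over the 9 genes and -0.0049 over all genes tested. Scaling by library totals in place of TMM factors moved the median of all genes to -0.50 and the calls from 2175 higher and 2726 lower to 915 higher and 5195 lower. The 8 calls held under both scalings, and DKK3 changed sign. Zone and meniscus fits that leave out a library, given below, also leave out the second term, meniscus or zone. A change there cannot be laid on the missing library alone. These whole-library levels move with the numbers of cells in each marker group given above. In such sums, fewer cells of a type and less RNA per cell cannot be told apart, and levels within marker groups are therefore given beside them.

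**Figure D1:**
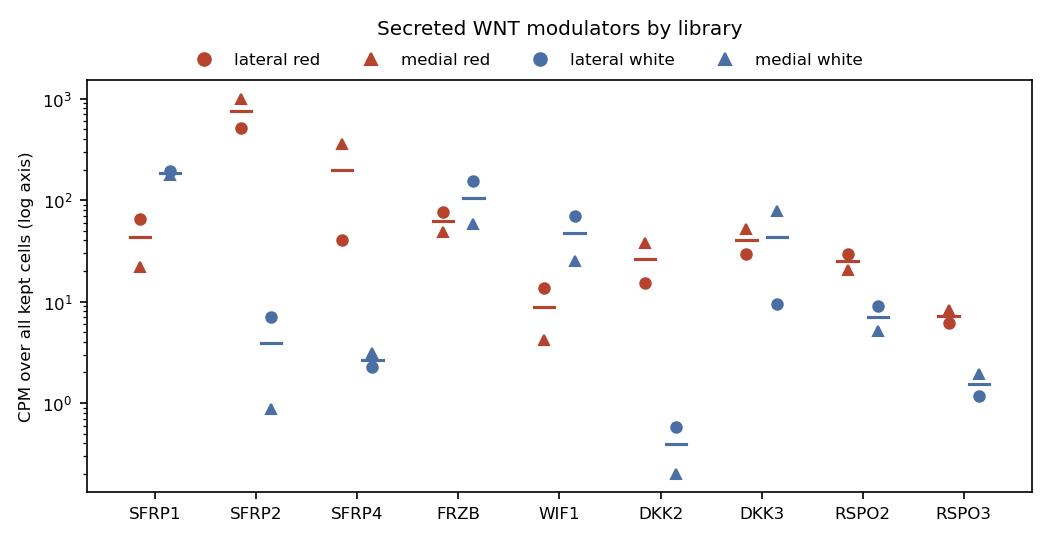
Level of each gene over all kept cells (CPM, log axis) in the red (red symbols) and white (blue symbols) libraries, circles for the lateral and triangles for the medial meniscus, with a bar at the mean of the 2 libraries of a zone. SFRP2, SFRP4 and DKK2 of the red zone lie far above the white zone, SFRP1 and WIF1 of the white zone lie above the red zone, and DKK3 of the white zone spans 9.55 to 77.9 CPM on both sides of the red libraries.

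SFRP2 (ENSSSCG00000009004, chromosome 8, 75337311 to 75345926 of Sscrofa11.1), a secreted frizzled-related protein of stromal cells, was the gene of the set most divided between the zones. It stood at 507 CPM in the lateral red and 989 CPM in the medial red library, and at 6.997 and 0.872 CPM in the white libraries. The zones did not overlap, and the log2 difference, white minus red, was -7.23 ± 0.86 (SE, edgeR adjusted p = 6.45e-04). Fibroblast-like cells of the red zone held 1053 and 1679 CPM, and the 37 fibroblast-like cells of the lateral white library 191 CPM from 12 UMIs. The 19 of the medial white library had no SFRP2 UMI. With fewer than 30 such cells in one library, the zones were not tested within fibroblast-like cells.

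The divide in SFRP2 was as wide within the cartilage-type groups. Fibrochondrocyte-like cells, named for COMP, CILP and related matrix genes, had 668 and 1198.5 CPM in the red and 11.7 and 1.08 CPM in the white libraries, a log2 difference of -7.40 ± 0.36. Chondrocyte-like cells had 177 and 320.02 CPM in the red and 1.97 and 0.602 CPM in the white libraries, a log2 difference of -6.99 ± 0.45. Both differences were called by edgeR and neither group's zones overlapped. In chondrocyte-like cells SFRP2 passed the count filter only through the red libraries, so its direction was set before the test. The fibrochondrocyte-like cells of the 2 zones were unlike in their markers. CILP stood at 76.8 and 71.4 CPM in the red and 546 and 1649 CPM in the white libraries. COMP, CILP2, OMD, PRELP and CHADL were also higher in white, while FMOD and ASPN overlapped. Those of the red zone also carried a median of 2 distinct fibroblast markers, against 1 in the white zone. The part of this in the SFRP2 level, and in the zone differences of other genes within this group, was not tested. Red myeloid-like cells, which are not known to express the gene, held 32.3 and 141 CPM, and red endothelial-like cells 15.7 and 94.0 CPM. After thinning each cell to 1000 UMIs, 1.40% (95% exact interval 0.564 to 2.86) and 3.87% (2.38 to 5.91) of red myeloid-like cells had an SFRP2 UMI, at a median depth of 1472 and 1370.5 UMIs, against 30.5% (27.6 to 33.4) and 45.1% (42.9 to 47.4) of red fibroblast-like cells at 1658 and 1711 UMIs. Unthinned, the shares were 2.04% and 4.42% against 37.3% and 54.0%. Where the SFRP2 UMIs of myeloid-like and endothelial-like cells came from was not tested. All intervals on shares cover counting error only.

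SFRP4 (ENSSSCG00000035299, chromosome 9, 108404314 to 108414335), a relative known as an inhibitor of WNT signalling in bone, differed between the red libraries as well as between the zones. It stood at 40.6 CPM in the lateral red and 355 CPM in the medial red library, and at 2.26 and 3.09 CPM in the white libraries. Both red libraries lay above both white ones, at a log2 difference of -5.22 ± 0.59 (edgeR adjusted p = 5.25e-04). In fibroblast-like cells the red levels were 87.5 CPM lateral and 608 CPM medial, and 1 SFRP4 UMI was found in the 56 white cells. In fibrochondrocyte-like cells SFRP4 went from 22.8 and 353 CPM in the red to 2.99 and 3.89 CPM in the white libraries, a called log2 difference of -5.36 ± 0.31. Chondrocyte-like cells had 18.2 and 42.7 CPM in the red, from 8 UMIs in both libraries together, and 1.67 and 1.81 CPM in the white libraries (-3.65 ± 0.69). SFRP4 passed the count filter there only through the red libraries, so its direction was set before the test. The call was lost without the lateral red (-4.09) or the medial red library (-3.11). Mural-like cells held 55.6 and 74.8 CPM in the red and 15.7 and 13.8 CPM in the white zone, the latter from 2 UMIs in each library. This last difference was called (-2.16 ± 0.66) but lost its call in 7 of 9 alternatives, among them the fits without the lateral red, the lateral white or the medial white library (-2.41, -2.26 and -2.13).

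SFRP1 (ENSSSCG00000025822, chromosome 17, 10436414 to 10489773), a WNT-binding inhibitor, ran the other way. It stood at 64.6 and 21.9 CPM in the red and at 194 and 176 CPM in the white libraries. Both white libraries lay above both red ones, at a log2 difference of 2.77 ± 0.32 (edgeR adjusted p = 5.84e-04). Its UMIs lay mainly in matrix cells: fibrochondrocyte-like cells held 41.6% and chondrocyte-like cells 39.8% of SFRP1 UMIs in the lateral white library, and 60.7% and 27.2% in the medial white one. In the medial red library fibroblast-like cells held the most, 45.8%, in a library where they were also the most numerous group.

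Within a group, SFRP1 still differed between the zones. Chondrocyte-like cells had 63.7 and 10.7 CPM in the red, from 14 and 1 UMIs, and 161 and 215 CPM in the white libraries, a called log2 difference of 2.23 ± 0.40. Without the medial red library the value was 1.81 and no longer called. Fibrochondrocyte-like cells had 150 and 39.9 CPM in the red and 254 and 172 CPM in the white libraries, a called log2 difference of 1.55 ± 0.24. That call was lost without the medial red library (0.64), without the lateral white library (0.92) and without the meniscus in the fit (1.31). The lateral library of each zone was the higher one in fibrochondrocyte-like cells, so the lateral red and medial white levels lie close together.

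FRZB (ENSSSCG00000016018, chromosome 15, 88332856 to 88377275), a WNT-binding protein first found in cartilage, was higher in the white zone over all cells and lower in the white zone within each cartilage-type group. Over all cells it stood at 76.6 and 48.7 CPM in the red and at 153 and 58.1 CPM in the white libraries. The ranges overlapped, since the medial white library lay below the lateral red one, while within each meniscus the white library was the higher. The log2 difference was 1.12 ± 0.23 (edgeR adjusted p = 0.0069), and it lost its call without the medial red library (0.96), without the lateral white library (0.33) and without the meniscus in the fit (1.27).

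Within chondrocyte-like cells FRZB fell from 400.2 and 331 CPM in the red to 212 and 86.1 CPM in the white libraries. Fibrochondrocyte-like cells showed the same order, from 184 and 160 CPM down to 93.5 and 51.9 CPM. Neither group's zones overlapped, and the log2 differences were -1.13 ± 0.31 (edgeR adjusted p = 0.0082) and -1.12 ± 0.22 (edgeR adjusted p = 5.55e-06). Mural-like cells, with 60.8 and 54.3 CPM in the red and 23.5 and 6.91 CPM in the white libraries, pointed the same way without a call (-1.97 ± 0.68). Both called differences lost their call without the lateral red (-0.62 and -0.89), without the medial red (-1.15 and -1.20) and without the medial white library (-0.61 and -0.65), always below 0. They also lost it without the meniscus in the fit (-1.06 in both groups), and the chondrocyte-like one with DESeq2 (-1.13). The fits without a library lacked the meniscus term as well, so those losses cannot be laid on the library alone. Chondrocyte-like cells, the group with the highest FRZB level in every library, made up 1.77% and 0.808% of kept cells in the red and 39.5% and 21.8% in the white zone. That share moves with the difference over all cells, and its part in it was not tested.

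**Figure D2:**
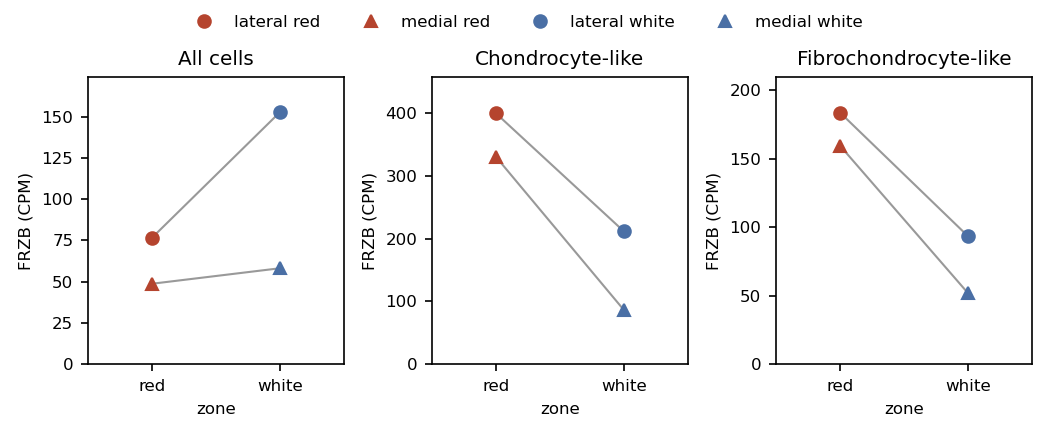
FRZB level (CPM, linear axes from 0) in the red and white zone over all kept cells, in chondrocyte-like cells and in fibrochondrocyte-like cells, circles for the lateral and triangles for the medial meniscus, grey lines joining the libraries of 1 meniscus. The lines rise over all cells, from 76.6 to 153 and from 48.7 to 58.1 CPM, and fall within both marker groups.

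WIF1 (ENSSSCG00000030998, chromosome 5, 29450442 to 29543913), WNT inhibitory factor 1, was higher in the white zone over all cells, while its zone difference was not called within chondrocyte-like or fibrochondrocyte-like cells. It stood at 13.6 and 4.22 CPM in the red and at 69.4 and 25.0 CPM in the white libraries, which did not overlap (log2 difference 2.94 ± 0.19, edgeR adjusted p = 7.2e-05). Chondrocyte-like cells had 182 and 42.7 CPM in the red, the latter from 4 UMIs, and 91.0 and 59.6 CPM in the white libraries. Fibrochondrocyte-like cells had 27.0 and 16.1 CPM in the red and 44.0 and 12.4 CPM in the white libraries. The zones overlapped in both groups, the white library was the higher in one meniscus and the lower in the other, and neither difference was called (-0.39 ± 0.34 and 0.44 ± 0.28, the latter called at 1.22 without the medial white library). In both zones and in both groups the lateral library was above the medial one. The 10 WIF1 UMIs in the 56 fibroblast-like cells of the white zone (47.8 and 242 CPM) compare with 10 UMIs in the 3494 of the red zone (3.19 and 0.68 CPM), and the white cells carried a median of 1 chondrocyte marker against 0 in the red ones.

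DKK2 (ENSSSCG00000032094, chromosome 8, 114862056 to 114974327), a dickkopf protein that acts on LRP5 and LRP6, was a red-zone gene of fibroblast-like and mural-like cells. RefSeq places LOC110262177 across the same span, and how reads of both loci were divided is not given in the sources used here. Over all cells DKK2 stood at 15.1 and 37.9 CPM in the red and at 0.583 and 0.201 CPM in the white libraries, from 8 and 3 UMIs (log2 difference -5.51 ± 0.52, edgeR adjusted p = 2.4e-04). The zones did not overlap. Mural-like cells held 65.0 and 95.2 CPM in the red zone, and none of the 206 white mural-like cells had a DKK2 UMI. Against a floor of 3 UMIs over the white zone, the red mural-like cells were at least 7.33-fold higher. The difference was called by edgeR and not by DESeq2. With no white UMI, DKK2 passed the count filter there only through the red libraries, so the direction was set before the test. Over all cells, too, DKK2 passed the filter only through the red libraries. After thinning, 6.74% (95% exact interval 4.74 to 9.25) and 7.40% (5.41 to 9.84) of red mural-like cells had a DKK2 UMI, against 0 and 0.967% of red myeloid-like cells at similar depth (medians 1387 and 1518 against 1472 and 1370.5 UMIs). Unthinned, 8.10% and 12.0% of red mural-like cells had one. Red fibroblast-like cells had 15.03 and 44.6 CPM.

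DKK3 (ENSSSCG00000013401, chromosome 2, 47385244 to 47444664), the divergent dickkopf relative, was the only gene of the set whose zone difference ran in opposite directions in the 2 menisci over all cells. It stood at 29.5 CPM in the lateral red and 51.8 CPM in the medial red library, and at 9.55 CPM in the lateral white and 77.9 CPM in the medial white library. The white libraries thus enclosed the red ones, and the log2 difference was 0.05 ± 0.44 (edgeR adjusted p = 0.93). Fibrochondrocyte-like cells showed the same picture, with 41.3 and 71.4 CPM in the red and 17.3 and 106 CPM in the white libraries (-0.06 ± 0.22, edgeR adjusted p = 0.90). Without either white library, in fits that also lacked the meniscus term, the sign followed the white library that was left. Over all cells the value was 1.37 without the lateral and -1.54 without the medial white library. In fibrochondrocyte-like cells the values were 1.04 and -1.45.

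In vessel cells DKK3 behaved alike in both menisci. Endothelial-like cells went from 7.88 and 5.72 CPM in the red to 67.0 and 68.7 CPM in the white libraries, from 8, 9, 10 and 27 UMIs. The zones did not overlap, the log2 difference was 3.16 ± 0.48 (edgeR adjusted p = 2.4e-07), and the call held in all 10 alternatives. DKK3 passed the count filter there through the white libraries, where it was higher. After thinning, 0.862% (0.235 to 2.19) and 0.496% (0.102 to 1.44) of red and 6.90% (1.91 to 16.7) and 7.09% (3.29 to 13.0) of white endothelial-like cells had a DKK3 UMI, at a median depth of 1206, 1500, 1044 and 1261 UMIs. Unthinned, the shares were 1.17%, 1.02%, 5.31% and 8.33%. In white myeloid-like cells the thinned share was 0 of 61 and 0 of 40 cells, which allows up to 4.92% and 7.50%, at 1594 and 1379 UMIs, and unthinned it was 0 and 1.96%. These limits lie inside the intervals of the white endothelial-like cells, so the shares of a single library do not separate the 2 groups. By level, white myeloid-like cells had 0 and 11.1 CPM of DKK3, from 0 and 1 UMIs, against 67.0 and 68.7 CPM. The difference between the 2 groups in the white zone was not tested. In the lateral white library the endothelial-like level of 67.0 CPM also lay above the 17.3 CPM of fibrochondrocyte-like and the 1.82 CPM of chondrocyte-like cells. In the medial white library the endothelial-like level of 68.7 CPM lay below the 106 CPM of fibrochondrocyte-like cells and above the 18.1 CPM of chondrocyte-like cells. Mural-like cells held 48.8 and 47.2 CPM in the red and 118 and 131 CPM in the white libraries, without overlap (1.36 ± 0.38, edgeR adjusted p = 0.011). That call was lost in 5 of 10 alternatives, among them DESeq2 (1.37) and the fits without the lateral red (1.31), the medial red (1.37) or the medial white library (1.21).

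**Figure D3:**
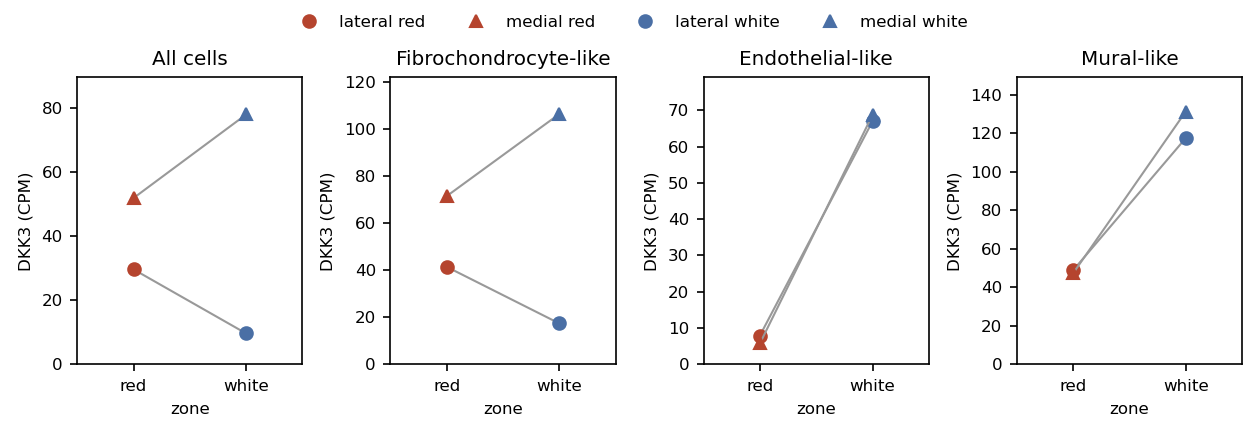
DKK3 level (CPM, linear axes from 0) in the red and white zone over all kept cells and in fibrochondrocyte-like, endothelial-like and mural-like cells, circles for the lateral and triangles for the medial meniscus, grey lines joining the libraries of 1 meniscus. Over all cells and in fibrochondrocyte-like cells the line falls in the lateral and rises in the medial meniscus, and in endothelial-like cells both rise, from 7.88 and 5.72 to 67.0 and 68.7 CPM.

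RSPO2 (ENSSSCG00000006034, chromosome 4, 29415774 to 29577890), an R-spondin that strengthens WNT signals, was a red-zone gene of the cartilage-type groups. Over all cells it stood at 29.3 and 20.5 CPM in the red and at 9.04 and 5.17 CPM in the white libraries, which did not overlap (log2 difference -1.34 ± 0.21, edgeR adjusted p = 0.0023). Without the lateral red library the value was -1.01 and not called. Fibrochondrocyte-like cells of the 2 red libraries held 69.9 and 67.2 CPM against 11.5 and 6.70 CPM in the white libraries (-2.79 ± 0.26, called in all 10 alternatives). Chondrocyte-like cells of the red zone held 72.8 and 74.7 CPM, from 16 and 7 UMIs, against 8.05 and 1.81 CPM (-3.55 ± 0.61). This second call was lost without the lateral red (-3.25), the lateral white (-5.14) or the medial white library (-2.99). The difference within the groups was thus wider than over all cells in the main fit, while cells of these groups were more numerous in the white zone.

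RSPO3 (ENSSSCG00000004218, chromosome 1, 35985985 to 36066432), the second R-spondin of the set, was the least counted gene, with 201 UMIs in all kept cells. It stood at 6.14 and 8.19 CPM in the red and at 1.17 and 1.95 CPM in the white libraries, without overlap (log2 difference -1.72 ± 0.31, edgeR adjusted p = 0.0042, and -1.51 without a call when the medial red library was left out). Fibroblast-like cells of the red zone held 22.3 and 18.8 CPM, 49 of 59 and 83 of 97 RSPO3 UMIs of their libraries. In every other marker group and library the level was 4.55 CPM or less. In the medial white library 24 of 29 UMIs lay in fibrochondrocyte-like cells, at 2.59 CPM.

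**Figure D4:**
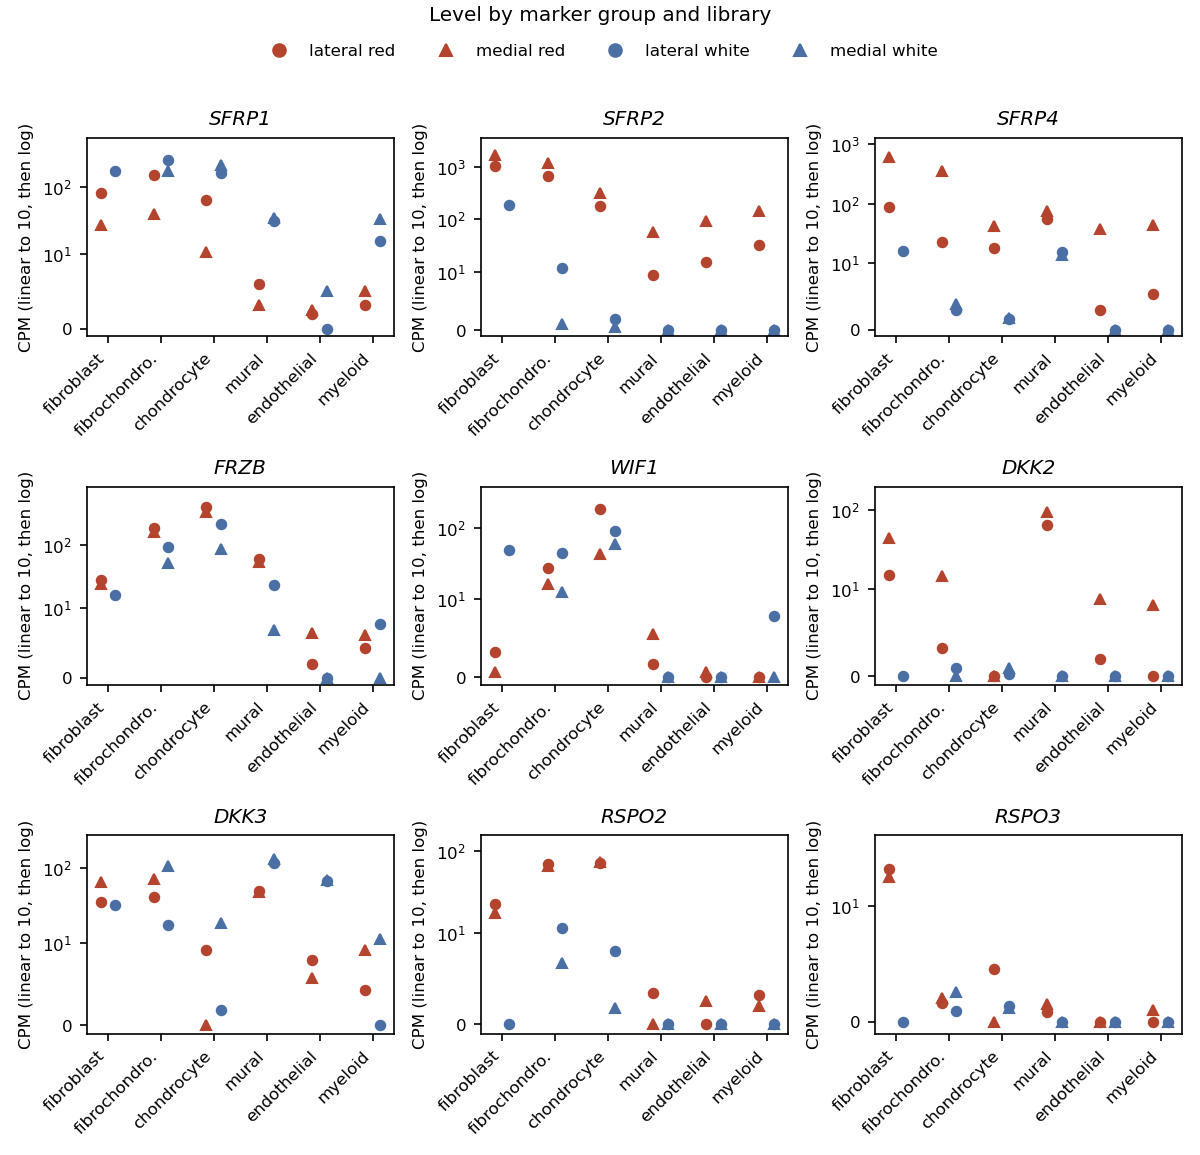
Level of each gene (CPM, linear to 10 and logarithmic above) in the 6 marker groups, red symbols for the red and blue symbols for the white zone, circles for the lateral and triangles for the medial meniscus. The 19 fibroblast-like cells of the medial white library are not drawn. SFRP2, SFRP4 and RSPO3 of the red zone are highest in fibroblast-like cells, DKK2 in mural-like cells, and FRZB in chondrocyte-like cells of every library.

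The counts of called genes within groups read as follows against their background. In fibrochondrocyte-like cells 7 of the 9 genes passed the count filter, and 1 of them was higher and 4 were lower in the white libraries by the test, where 20.3% of 9330 genes were called in either direction (869 higher and 1021 lower, or 488 and 1313 scaled by library totals). In chondrocyte-like cells 1 was called higher and 4 lower of 7 tested, at a background of 5% of 7676 genes (165 higher and 219 lower, or 68 and 262 by library totals). In mural-like cells 2 were called higher and 2 lower of 5 tested, at 6.05% of 6658 genes. SFRP1 was the second one higher there, at 5.99 and 3.15 CPM in the red and 31.4 and 34.6 CPM in the white libraries, from 11 UMIs in the red and 9 in the white zone, and it was no longer called without either white library (2.87 and 2.68). In endothelial-like cells the 2 genes tested, DKK3 and SFRP2, were called, at 11.6% of 6501 genes (329 higher and 424 lower, or 423 and 242 by library totals). In myeloid-like cells SFRP2, the single gene tested, was called, at 2.93% of 5524 genes. SFRP2 had no UMI in the white cells of both groups, against 164 (endothelial-like) and 169 (myeloid-like) in the red ones. It passed the count filter only through the libraries where it was high, which set its direction before the test. The same holds for DKK2 in mural-like cells, for SFRP2 and SFRP4 in chondrocyte-like cells and for DKK2 over all cells. SFRP1 in mural-like cells and DKK3 in endothelial-like cells passed only through the white libraries, where they were higher. These calls are therefore descriptions. DESeq2 called SFRP2 in neither endothelial-like nor myeloid-like cells. The endothelial-like call was also lost without the medial white library (-8.77) and the myeloid-like one without the meniscus in the fit (-8.57).

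Between the menisci, none of the 9 genes was called over all cells, where 3 of 12481 genes (0.024%) were called by edgeR, 832 had an unadjusted p below 0.05, and DESeq2 called 32. WIF1 came nearest, at -1.65 ± 0.19, medial minus lateral (edgeR adjusted p = 0.056), and was called in 5 of 11 alternatives, DESeq2 among them. Within fibrochondrocyte-like cells, SFRP4 (2.93 ± 0.30) and DKK3 (1.66 ± 0.23) were called higher and SFRP1 (-1.26 ± 0.24) and WIF1 (-1.56 ± 0.27) lower in the medial meniscus, at a background of 2.93% of 9330 genes (97 higher and 176 lower, or 90 and 76 by library totals). Without the medial red library and the zone term, the SFRP4 value was -1.60. That fit set the medial white library (3.89 CPM) against both lateral ones (22.8 and 2.99 CPM), so the zone difference enters it. Within each zone the medial library was higher, at 353 against 22.8 CPM in red and 3.89 against 2.99 CPM in white. No gene was called in this comparison without the zone in the fit, and DESeq2 called 17 genes. Fits without 1 of the 4 libraries also had no zone term and cannot show the part of single libraries.

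The groups themselves were then set against each other, with the library as a block. Set against fibrochondrocyte-like cells, chondrocyte-like cells had more WIF1 (1.88 ± 0.28 on the log2 scale, edgeR adjusted p = 2.5e-05) and more FRZB (0.97 ± 0.21, edgeR adjusted p = 0.0040), and less DKK3 (-2.96 ± 0.42), SFRP2 (-2.16 ± 0.39) and SFRP4 (-1.59 ± 0.46). These are 2 genes higher and 3 lower of 9, where 3.83% of 11611 genes were called. FRZB lost its call without the lateral red library (0.98), and SFRP4 without the medial red (-0.72), the lateral white (-1.80) or the medial white library (-1.71). With DESeq2 WIF1 (2.12), SFRP2 (-1.83) and SFRP4 (-1.45) were not called, and without the library as a block FRZB (0.91), DKK3 (-2.61), SFRP2 (-2.69) and SFRP4 (-4.50) were not. SFRP4 lost its call in 8 of 13 alternatives in all. SFRP1 and RSPO2 did not pass (-0.44 ± 0.27 and -0.55 ± 0.28).

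Fibroblast-like cells, against the same fibrochondrocyte-like cells, had more RSPO3 (2.82 ± 0.47), DKK2 (1.60 ± 0.43) and SFRP4 (1.11 ± 0.36), and less WIF1 (-3.54 ± 0.51), FRZB (-3.00 ± 0.30), RSPO2 (-2.09 ± 0.29) and SFRP1 (-0.92 ± 0.30). That is 3 higher and 4 lower of 9, at a background of 11.1% of 11611 genes (759 higher and 525 lower, or 1483 and 280 by library totals). SFRP2 did not pass (0.85 ± 0.40, edgeR adjusted p = 0.19), nor did DKK3 (-0.05 ± 0.37). DKK2 lost its call without the lateral red (1.46) or the medial red library (1.72), SFRP4 without the lateral red (1.06) or the lateral white library (1.02), and SFRP1 in 8 of 13 alternatives. DESeq2 called neither DKK2 (2.00) nor SFRP4 (1.37), and without the library as a block RSPO2 (-1.22) and SFRP4 (1.37) lost their calls. Both contrasts share the fibrochondrocyte-like sums.

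Each group was also set against the mean of all other groups. Of the 9 genes 7 were called higher in fibroblast-like cells, where 19% of 11611 genes were called higher, and 7 in fibrochondrocyte-like cells (23.1%). In chondrocyte-like cells 5 were called higher (19.8%) and in mural-like cells 4 (18%), namely SFRP4, FRZB, DKK2 and DKK3. None was called higher in endothelial-like (18.3%) or myeloid-like cells (19.1%), and none was called lower in any of these 6 groups, where 3.44%, 4.23%, 4.89%, 4.71%, 4.34% and 2.6% of genes were called lower in the order just given. Scaling by library totals moved the calls from 2683 higher and 491 lower to 1826 and 1015 in fibrochondrocyte-like, from 2294 and 568 to 1419 and 1150 in chondrocyte-like, from 2091 and 547 to 4207 and 217 in mural-like and from 2125 and 504 to 3867 and 288 in endothelial-like cells. The median of all genes in these contrasts was 0.41 to 0.60, away from 0, and without the sums of T or NK and B or plasma cells it was -0.09 to 0.05. In that fit SFRP2 in chondrocyte-like cells (0.44) and SFRP4 and FRZB in mural-like cells (0.51 and 0.39) lost their calls. DKK2 and DKK3 in mural-like cells kept theirs (3.05 and 1.45). In the same fit, which tested 8 of the 9 genes, 7 were called lower in endothelial-like cells, all but DKK3, and 8 in myeloid-like cells. SFRP1, SFRP2 and RSPO2 were called lower in mural-like cells (-1.93, -3.46 and -3.20) and DKK3 in chondrocyte-like cells (-1.89). Over the 4 libraries, neighbouring groups in the order of mean CPM overlapped in range for each of the 9 genes, except FRZB between fibroblast-like (15.9 to 34.5 CPM) and myeloid-like cells (0 to 7.77 CPM) and WIF1 between fibrochondrocyte-like (12.4 to 44.0 CPM) and myeloid-like cells (0 to 7.77 CPM).

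Fibroblast-like cells of the red zone were split by the UMIs of 3 short marker lists: adventitial (PI16, MFAP5, CD34 and CD248, 190 and 645 cells), stromal (CXCL12, CXCL14 and C7, 673 and 1142 cells) and tendon (KERA, MYOC, TNMD and ANGPTL7, 54 and 91 cells, lateral and medial). The modulators fell into different subsets. SFRP4 stood at 240.2 and 1392 CPM in the adventitial and at 51.1 and 157 CPM in the stromal subset, the adventitial subset being higher in both libraries (log2 difference 2.77 ± 0.21, edgeR adjusted p = 3.2e-10). DKK3 followed it, at 85.2 and 135 CPM against 18.4 and 19.4 CPM (2.59 ± 0.23, edgeR adjusted p = 7.9e-09). RSPO3 did the opposite, at 5.17 and 7.17 CPM against 33.6 and 32.4 CPM (-2.30 ± 0.41, edgeR adjusted p = 3.3e-04). It passed the count filter only through the stromal sums, so its direction was set before the test. These 2 higher and 1 lower of 8 genes tested stand beside 10% of 7195 genes called.

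In the tendon subset RSPO2 reached 87.1 and 53.5 CPM, from 10 and 11 UMIs, against 12.0 and 8.11 CPM in the stromal subset (2.84 ± 0.51, edgeR adjusted p = 3.3e-04). SFRP2 was at 1942 and 2933 CPM against 813 and 1479.95 CPM (1.18 ± 0.20, edgeR adjusted p = 2.2e-04). No RSPO3 UMI was found in the 145 tendon cells, which puts the stromal subset at least 3.51-fold higher against a floor of 3 UMIs over both libraries. RSPO3 could thus pass the count filter only through the other subsets, so its direction was set before the test. These 2 higher and 1 lower of 8 genes stand beside 5.99% of 7195 genes called (215 higher and 216 lower, or 181 and 278 by library totals). SFRP1, FRZB and DKK2 were called in neither contrast. The calls of both contrasts held without TMM and without the library block. Those of SFRP4, DKK3 and SFRP2 held with DESeq2 as well, which gave no adjusted p for RSPO2 and RSPO3. The contrasts share the stromal sums. SFRP4 was higher in the medial than in the lateral library in each of the 3 subsets.

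**Figure D5:**
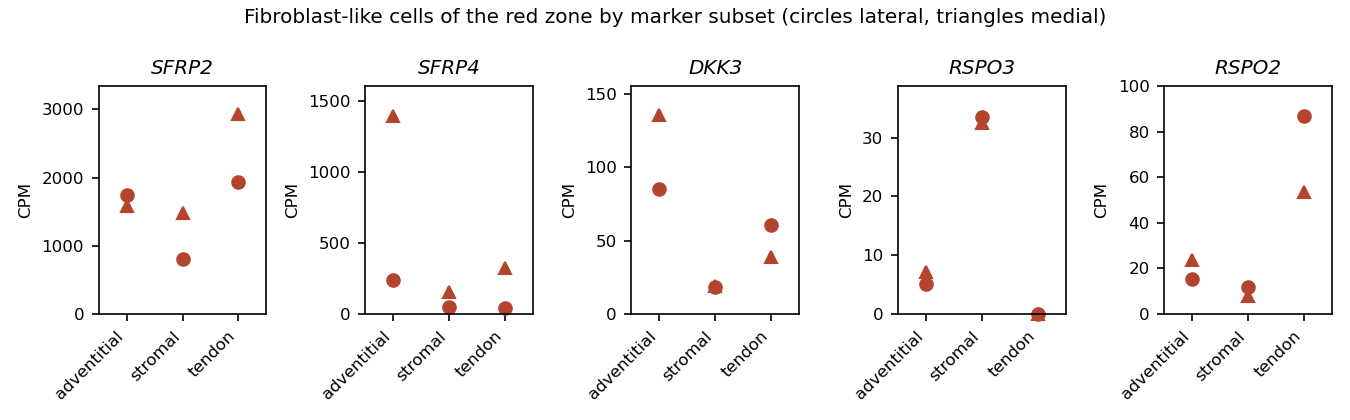
Levels (CPM, linear axes from 0) of SFRP2, SFRP4, DKK3, RSPO3 and RSPO2 in 3 subsets of the fibroblast-like cells of the red zone, circles for the lateral and triangles for the medial library. SFRP4 and DKK3 are highest in the adventitial, RSPO3 in the stromal and RSPO2 in the tendon subset, in both libraries.

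Within cells, pairs of genes were described after thinning each cell to 1000 UMIs, with the cells of a library sharing that library. FRZB was found less often among cells with an SFRP1 UMI than among the other cells of the same group in all 6 library sums of the cartilage-type groups that held at least 20 cells with SFRP1. In fibrochondrocyte-like cells the shares were 6.25% of 112 against 17.0% (lateral red), 9.68% of 31 against 14.97% (medial red), 3.78% of 423 against 9.39% (lateral white) and 1.96% of 612 against 5.69% (medial white). In chondrocyte-like cells they were 10.1% of 346 (95% exact interval 7.15 to 13.8) against 17.7% (16.2 to 19.3) in the lateral white and 3.79% of 264 (1.83 to 6.86) against 9.70% in the medial white library. In red fibroblast-like cells FRZB was found in 1.56% of 64 cells with SFRP1 against 2.11% of the others (lateral) and in 3.03% of 33 against 2.13% (medial). DKK3 went the other way with SFRP4: in fibroblast-like cells 8.77% of 57 and 10.4% of 367 cells with SFRP4 had a DKK3 UMI, against 3.35% and 3.70% of the others, lateral and medial red. Fibrochondrocyte-like cells of the medial red library showed 17.4% of 69 against 4.77%, while red mural-like cells showed 3.70% of 27 against 5.49% and 0 of 30 against 5.08%. In sparse counts such shares are descriptions and were not tested.

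The other genes of the pathway were taken from lists. Of the other secreted modulators, 5 of 11 passed the count filter over all cells, and DKK1, a dickkopf inhibitor, was called higher and SFRP5 and CTHRC1 lower in the white zone. CTHRC1, a secreted collagen-associated protein reported to bind WNT ligands, stood at 104 and 126 CPM in the red and 13.2 and 9.86 CPM in the white libraries (-2.83 ± 0.23). Of 7 WNT ligands tested, WNT9A and WNT16 were called higher and WNT5A and WNT11 lower. Of 15 receptors tested, FZD5, FZD7, FZD9 and RYK were called higher and FZD2, FZD6, LRP5, ROR1 and ROR2 lower. Of 7 feedback and target genes BAMBI was called higher (61.3, 28.8, 95.1 and 77.6 CPM in the lateral red, medial red, lateral white and medial white libraries) and LEF1 lower. AXIN2, a widely used readout of canonical WNT signalling, was not called (23.0, 18.4, 16.3 and 23.6 CPM, 0.43 ± 0.23). None of 11 genes of WNT secretion and transduction was called, against 39.3% of all genes. Within fibrochondrocyte-like cells FZD7 (0.79 ± 0.25) and FZD9 (1.32 ± 0.33) were called higher and FZD2 and LRP5 (-1.31 ± 0.47) lower of 9 receptors tested, beside 20.3% of all genes called there, APCDD1 and CTHRC1 (-3.09 ± 0.23) lower of 3 other secreted modulators, TCF7 (-0.62 ± 0.23) lower of 6 feedback and target genes and CTNNB1 (-0.57 ± 0.22) lower of 11 genes of secretion and transduction. Over all cells, list medians lay between -1.09 (ligands) and 0.92 (R-spondin receptors and ligases).

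The R-spondin receptors divided between the zones. LGR5 stood at 9.57 and 11.6 CPM in the red and 0.583 and 0.872 CPM in the white libraries (-3.37 ± 0.33). LGR6 stood at 1.77 and 0.506 CPM in the red and 29.5 and 18.7 CPM in the white libraries (4.97 ± 0.31), and LGR4 at 24.9 and 26.3 against 51.8 and 65.8 CPM (1.68 ± 0.17). All were called by edgeR, and for none of them did the zones overlap, while ZNRF3 was not called (0.16 ± 0.27). Within fibrochondrocyte-like cells the same order held, with LGR5 at 24.9 and 41.3 against 0.921 and 0.756 CPM (-5.19 ± 0.44), LGR6 at 5.30 and 2.10 against 18.6 and 10.2 CPM (2.13 ± 0.45) and LGR4 at 14.3 and 15.4 against 43.7 and 61.3 CPM (1.97 ± 0.27). In that group the ligand RSPO2 and the receptor LGR5 were thus both higher in the red zone, and LGR4 and LGR6 in the white zone. The red LGR6 and white LGR5 levels there rest on few UMIs. LGR5 passed the count filter in that group only through the red libraries, so its direction was set before the test. A floor of 3 UMIs is 0.905 CPM over the red and 0.221 CPM over the white libraries of the group.

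Genes most like each member were sought over the 26 sums of a library and marker group, by Pearson correlation of log2(CPM + 10) among 5106 genes with a mean of at least 20 CPM. The nearest genes were ADAMTSL3 for SFRP1 (r = 0.91), CPZ (0.93) and MMP2 (0.92) for SFRP2, C1QTNF6 for SFRP4 (0.89), CRISPLD1 for FRZB (0.92) and KIF21A for WIF1 (0.89). For the dickkopf genes they were C4A with DKK2 (0.82) and AMOTL2 with DKK3 (0.84), and for the R-spondins FAM180B (0.94) and MYOC (0.93) with RSPO2 and PI16 with RSPO3 (0.79). The third gene on the list of SFRP4 was SFRP2 (0.82). RSPO3 had a mean of 2.27 CPM, under the 10 CPM added, and PI16 is itself a marker of the fibroblast-like group. Within red fibroblast-like cells RSPO3 was lower in the adventitial subset, which PI16 helps to define. It stood there at 5.17 and 7.17 CPM, against 33.6 and 32.4 CPM in the stromal subset. The sums of a library share its depth and its background RNA, so these values are descriptions.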

How the data were processed

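Single-cell 3′ libraries (10x Genomics chemistry) of the 4 tissue samples were processed by the authors with Cell Ranger 6.1.2 and Sscrofa11.1, per the submitters' processing notes, and deposited as UMI counts per gene and barcode. The members and lists were chosen with earlier results of these data known. Here barcodes with at least 500 UMIs, 200 genes and at most 20% mitochondrial UMIs (13 genes) were kept, 27693 of 27782. No doublet caller was run. Between 87 and 597 kept cells per library held at least 3 markers of a matrix list and of another list, and leaving out cells with markers of 2 compartments was one of the alternatives. Gene coordinates are RefSeq's on Sscrofa11.1, and all 9 members matched. Of the 21280 features 14811 carried a symbol in the files and 691 took one from the reference table.

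Counts were summed per library, or per library and marker group with at least 20 cells, and tested with edgeR 4.0.16 (quasi-likelihood, TMM, filter on low counts, meniscus and zone or library as terms) in R 4.3.3, with Benjamini-Hochberg adjustment over all genes tested and a threshold of 0.05. Zones were compared within a group where every library had at least 30 of its cells. The fit over all cells and the zone fits within groups had 1 residual degree of freedom, so their error rests mainly on the spread shared by all genes. Contrasts between groups had 15 residual degrees of freedom and those between subsets 2. Their sums share libraries and are not independent replicates. CPM were computed from summed counts and shares after thinning to 1000 UMIs, with exact binomial (Clopper-Pearson) 95% intervals. A count of 0 was given a floor of 3. Genes were named as the 9 members, the pathway lists, and the genes most like each member. DESeq2 1.42.0, library totals, other filters and groupings and leaving out each library were alternatives, and subset and pairwise contrasts were added after seeing the data. Zone and meniscus fits without a library had only 1 term, the zone or the meniscus. Contrasts between groups kept the library as a block when a library was left out. Scripts were tested on simulated data. Library totals were 9666319 to 14902274 UMIs.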

Additional observations from a re-analysis of the deposited data

Results flagged for a closer look

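DKK3 had zone differences of opposite sign in the 2 menisci, each of at least 0.5 with at least 100 UMIs in all. Over all cells, on the log2(CPM + 1) scale, white minus red DKK3 was -1.53 for the lateral and 0.58 for the medial meniscus. In fibrochondrocyte-like cells the DKK3 values were -1.21 and 0.57. WIF1 also took opposite signs, in fibrochondrocyte-like cells (0.68 lateral and -0.35 medial) and chondrocyte-like cells (-0.99 and 0.47), with 1 side under 0.5. Each value is a difference between 1 white and 1 red library, and the difference between the menisci was not tested.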

How the results depend on the processing

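Across the alternatives, 1255 tests of single genes stayed on their side of the threshold (90 of these, uncalled, with another sign), 116 lost a call, 40 gained one, and 10 changed sign with a call in at least 1 of the 2 fits. No alternative reversed the zone difference over all cells of SFRP1, SFRP2, SFRP4, FRZB, WIF1, DKK2, RSPO2 or RSPO3. For DKK3 it ran from -1.54 (without white zone replicate 2) to 1.37 (without white zone replicate 1) over all cells, and from -1.45 to 1.04 in fibrochondrocyte-like cells. SFRP4 between the menisci in fibrochondrocyte-like cells ran from -1.60 (without red zone replicate 2) to 5.58 (without red zone replicate 1). The fits behind these DKK3 and SFRP4 extremes lacked the meniscus and the zone term, respectively. For SFRP4 the zone difference therefore enters both values. Without the T or NK and B or plasma sums, 14 of 64 values changed sign, 7 of them now called lower: DKK3 in chondrocyte-like cells (-1.89), SFRP4 (-2.36) and DKK2 (-1.55) in endothelial-like cells, and SFRP2 (-1.48), SFRP4 (-1.81), DKK2 (-1.87) and DKK3 (-2.03) in myeloid-like cells. For these the cause was not tested.

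Counts of called genes moved more. With DESeq2, 3267 genes were called between zones and 32 between menisci over all cells. The DESeq2 counts between zones were 547 in fibrochondrocyte-like, 84 in chondrocyte-like, 68 in mural-like, 85 in endothelial-like and 73 in myeloid-like cells, with 17 between menisci in fibrochondrocyte-like cells. Of the contrasts between groups, DESeq2 called 185 for chondrocyte-like against fibrochondrocyte-like cells, 151 for the adventitial and 224 for the tendon subset. With 1 more distinct marker the fibrochondrocyte-like counts were 1078 between zones and 11 between menisci. The comparison of menisci over all cells gave 8 with all deposited barcodes, 29 by library totals, 173 with no filter on low counts, 6 without cells with markers of 2 compartments and 28 without the 5% of cells with most UMIs. By library totals 315 genes were called in myeloid-like cells, 166 between menisci in fibrochondrocyte-like cells, and 4424 in mural-like and 4155 in endothelial-like cells against the other groups. Without cells with markers of 2 compartments 205 were called in endothelial-like cells, and without the 5% of cells with most UMIs 244 in myeloid-like cells. Without the T or NK and B or plasma sums, 3959 were called in endothelial-like and 4755 in myeloid-like cells against the others.

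The pairing of libraries by meniscus, the replicate block, is part of the design, since replicate numbers stand for the meniscus. With no replicate block the counts between menisci were 0 over all cells and 0 in fibrochondrocyte-like cells, and those between zones 740 in fibrochondrocyte-like and 123 in chondrocyte-like cells. Without the library as a block, 75 genes were called between chondrocyte-like and fibrochondrocyte-like cells, 263 for the adventitial and 254 for the tendon subset.

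Leaving out 1 library at a time gave 2475 to 5391 calls between zones over all cells, 308 to 1546 in fibrochondrocyte-like, 73 to 261 in chondrocyte-like, 130 to 499 in mural-like, 121 to 651 in endothelial-like and 114 to 285 in myeloid-like cells. In these zone fits the meniscus term was left out as well. Between menisci, leaving out 1 library also took out the zone term, so it cannot show the part of single libraries. Against the other groups it gave 916 to 3018 in fibroblast-like, 1914 to 3434 in fibrochondrocyte-like, 1917 to 2642 in chondrocyte-like, 1365 to 2843 in mural-like, 1625 to 2651 in endothelial-like and 1704 to 2600 in myeloid-like cells. Chondrocyte-like against fibrochondrocyte-like cells gave 152 to 200 and fibroblast-like against fibrochondrocyte-like cells 526 to 1322. Where this left a zone with 1 library, that library is assumed to vary like the others. White endothelial-like, mural-like and myeloid-like sums hold few cells, so genes of low counts were not detectable there.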
